A study of Mus musculus with 5 samples.

Results

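The 8 genes followed here belong to 4 families that act together on muscle promoters: the transcription factor gene Six4, the Eya coactivator genes Eya1, Eya2 and Eya4, the Vestigial-like cofactor genes Vgll2 and Vgll3, and the TEA domain factor genes Tead1 and Tead4. Members were all non-control probes that carried one of these 8 gene names in the array files, which gave 10 probes, 3 of them for Tead1. They are 8 of 26140 genes and unnamed features tested. All 8 passed the filter on dim probes, which kept a gene if all arrays of 1 or more groups were well above background. Vgll2 and Tead4 passed it through the TSA and MuSC arrays alone.

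Six4 and its relatives of the sine oculis homeobox family are homeodomain factors that bind the MEF3 element of muscle genes such as Myog. They activate poorly alone and recruit Eya proteins, which are both coactivators and phosphatases. Tead factors bind the MCAT element and likewise need a cofactor, which can be a Vgll protein or the Hippo pathway effectors YAP and TAZ. In mice Vgll2 is known mainly from skeletal muscle, and Tead4 is a direct target of MyoD in differentiating myoblasts.

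Levels were measured in cells sorted from the muscle of dystrophin-mutant mdx mice on a C57BL/6 background. The groups were Sca1+ cells after the histone deacetylase inhibitor trichostatin A, or TSA (2 arrays), muscle stem cells (MuSC) after vehicle (1 array), and Sca1+ cells after vehicle (2 arrays). TSA was injected into the peritoneum at 0.6 mg/kg, and treatment lasted 45 days in every group. Both populations were sorted as CD34+ and α7-integrin+ cells, and Sca1 separated them: Sca1+ interstitial cells and Sca1- MuSC. All groups were therefore dystrophic, and neither healthy muscle nor TSA-treated MuSC were analysed here. The labels give neither the animals' age nor whether animals were pooled, nor which animals a replicate stands for. The p-values here thus rest on the spread between arrays alone, and that spread may be technical.

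The promoters of Vgll2 and Six4 are shown. They were searched for the MEF3 and MCAT elements of these factors, and for the E-box, which is an element of other factors. RefSeq (GRCm38.p6) gave promoters for 4 of the 8 members, Six4, Eya4, Vgll2 and Vgll3. Each line holds the 250 bases before an annotated start, 5′ to 3′ on the gene's strand. The window of Vgll2 is chr10:52022252-52022501 on the + strand and that of Six4 is chr12:73113246-73113495 on the - strand. Capitals mark an E-box (CANNTG, the element of basic helix-loop-helix factors, which differ in the middle bases they prefer) in Vgll2 and a MEF3 match (TCAGGTTTC, here on the opposite strand) in Six4.
Vgll2: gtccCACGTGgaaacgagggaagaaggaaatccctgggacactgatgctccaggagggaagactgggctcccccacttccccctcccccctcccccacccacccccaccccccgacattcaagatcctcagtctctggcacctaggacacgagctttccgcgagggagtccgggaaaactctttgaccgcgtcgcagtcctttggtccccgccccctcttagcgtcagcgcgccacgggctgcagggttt
Six4: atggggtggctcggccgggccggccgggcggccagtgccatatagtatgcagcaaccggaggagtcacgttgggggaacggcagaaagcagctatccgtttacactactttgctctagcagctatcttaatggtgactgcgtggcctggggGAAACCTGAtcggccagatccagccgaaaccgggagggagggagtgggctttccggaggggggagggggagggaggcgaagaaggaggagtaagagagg

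The motifs searched, on both strands, were MEF3, the E-box and the MCAT core CATTCC. Among 32851 promoter windows of the same length, 0.387% held the MEF3 letters, 12.6% the MCAT core and 66.2% an E-box. The MEF3 match was in 1 of the 2 Six4 windows, the MCAT core was found in Vgll3, and neither was found in Vgll2. A match is a description of these letters and not a binding site.

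Levels are log2 of the processed signal relative to the 75th percentile of the same array, so 0 is that percentile. Between 58.5% and 66.9% of spots were well above background, and replicate arrays correlated across genes at 0.989 with TSA and 0.987 with vehicle. The share was 64.7% and 66.9% with TSA, 61.3% in MuSC and 62.1% and 58.5% in vehicle Sca1+ cells. The lowest level well above background was -5.51 and -5.62 with TSA, -4.70 in MuSC and -4.62 and -4.42 in vehicle Sca1+ cells. Slide 1 held the MuSC array and the first replicate of both Sca1+ groups, and slide 2 the other arrays. Markers of the sorted cells differed in level between groups. The summed signal of 6 satellite cell markers, in multiples of the 75th percentile, was 37.4 and 38.9 in TSA Sca1+ cells, 224 in MuSC and 12.4 and 12.0 in vehicle Sca1+ cells. That of 7 fibroadipogenic and Sca1+ gate markers was 1179 and 1266 with TSA, 162 in MuSC and 2177 and 2831 in vehicle Sca1+ cells. Itga7, the α7-integrin gene of the shared gate, was at 4.53 and 4.59 with TSA, 7.02 in MuSC and 1.35 and 1.09 in vehicle Sca1+ cells. Its level was 10.1-fold higher with TSA and 55.7-fold higher in MuSC than in vehicle Sca1+ cells (adjusted p = 0.00538 and 0.00145, limma). The MuSC array also carried the highest sums for 6 smooth muscle markers (520 to 567 with TSA, 1514 in MuSC, 28.3 to 33.1 in vehicle Sca1+ cells).

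**Figure D1:**
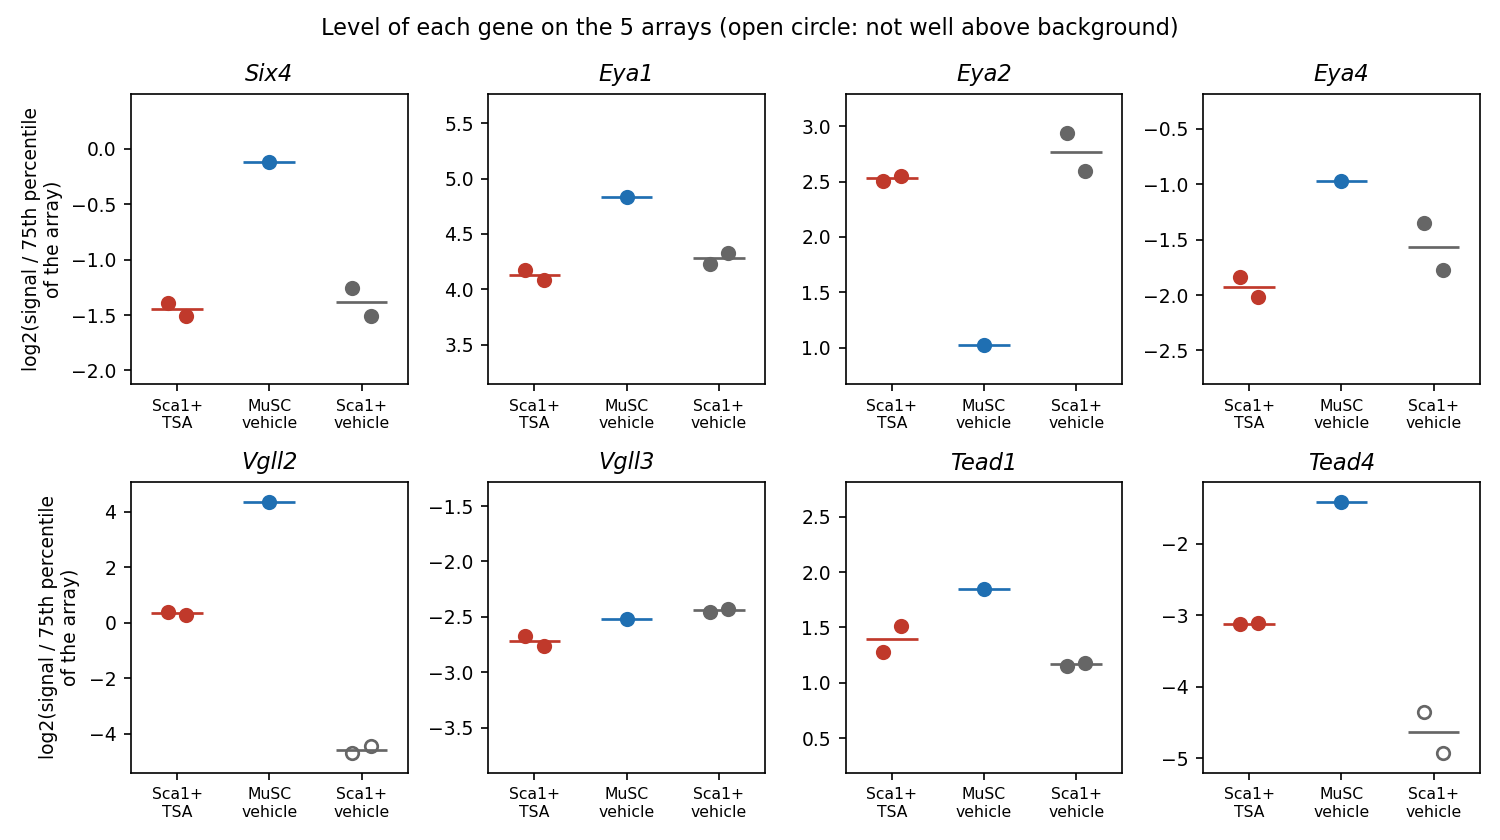
Level of the 8 genes on each of the 5 arrays, as log2 of the signal over the array's 75th percentile. Points are arrays, lines are group means, and open circles are spots not well above background. Vgll2 and Tead4 are open on both vehicle Sca1+ arrays, and the highest point of both is the MuSC array. Panels have axes of their own, and a level in one panel does not compare with a level in another.

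The first comparison, TSA against vehicle within Sca1+ cells, asks how the treatment moved these genes in interstitial cells. Vgll2 rose with TSA, and no other member passed limma's test at an adjusted p of 0.05. Among all genes, 2.98% passed, 2.71% higher and 0.268% lower, so 1 of 8 members higher is a small count. Vgll2 also passed the filter on dim probes only through the TSA and MuSC arrays, where it is high. The median difference over the members was -0.11 on the log2 scale, against -0.13 over all genes. For 7 of the 8 members the TSA and vehicle arrays did not overlap, against 59.3% of all genes.

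Vgll2 (probe chr10:51748095-51748154, + strand, mm9) was at 0.39 and 0.29 on the TSA arrays, and at -4.70 and -4.45 on the vehicle arrays. The processed intensities were 428 and 554 with TSA and 9.05 and 7.55 with vehicle. Both vehicle spots were not well above background, and both TSA spots lay far above them. Since the vehicle spots set only a bound, the level was at least 29.1-fold higher with TSA (adjusted p = 0.00364, limma). Such bounds set the brighter group against the lowest signal well above background on the dim arrays, or the spot's own where that was higher. The fitted log2 difference, which takes the vehicle spots at their own values, was 4.92 ± 0.17 (SE). It was 5.09 within slide 1 and 4.74 within slide 2. Without TSA replicate 1 the adjusted p was 0.0948 and without TSA replicate 2 it was 0.0577, at log2 differences of 4.87 and 4.97; limma called 0 genes in either case, with 4813 and 3300 genes at an unadjusted p under 0.05. With normexp background correction, which adds an offset of 50 to each intensity, the log2 difference was 2.01.

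Fewer cells of a type and less RNA per cell cannot be told apart in these sorted samples. Beside the Vgll2 result, 4 of 6 satellite cell markers rose with TSA and none fell, with the sums given above. Of 6 markers of differentiating muscle and fibre, all 6 rose. Their summed signal was 19.6 and 24.7 with TSA and 1.66 and 1.85 with vehicle. Of the satellite cell markers, neither Myf5 nor Calcr rose well above background on the vehicle arrays. Pax7 and the muscle markers Ckm and Myh1 did so on 1 of the 2 vehicle arrays. These genes passed the filter on dim probes only through groups where they are high, so the counts depend on the filter. All 4 Schwann cell markers, all 4 mast cell markers, all 3 erythroid markers tested and all 6 smooth muscle markers rose as well. Of the mast cell markers, Cpa3, Cma1 and Fcer1a passed the filter on dim probes through the TSA arrays alone. The smooth muscle marker Myocd passed it through the TSA and MuSC arrays alone. Of the 7 fibroadipogenic and Sca1+ gate markers, 1 fell, the fibroadipogenic marker Pi16 (-1.37, adjusted p = 0.0464, limma). None of 5 endothelial and 4 macrophage markers passed, where 2.98% of all genes did. The Schwann cell sum was 12.7 and 14.6 with TSA, 45.8 in MuSC and 1.14 and 1.17 with vehicle. The erythroid sum was 601 and 627 with TSA, 15.5 in MuSC and 39.1 and 40.8 with vehicle. The mast cell sum was 27.3 and 25.2 with TSA, 0.0870 in MuSC, where no mast cell marker was well above background, and 0.378 and 0.429 with vehicle. The Schwann cell, smooth muscle and both muscle sums were highest in MuSC, and the mast cell and erythroid sums were highest with TSA. The part of any of these cell types in the result was not tested.

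Vgll3 (chr16:65862151-65862210, + strand), another Vestigial-like cofactor gene, was at -2.68 and -2.77 with TSA and at -2.45 and -2.43 with vehicle. Both TSA arrays were below both vehicle arrays, and the log2 difference of -0.28 ± 0.15 did not pass (adjusted p = 0.317, limma). Among all genes 59.3% did not overlap, and the median difference was -0.13. Of the 2 Vestigial-like members, only Vgll2 passed, and no direction is read from Vgll3.

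Tead4 (chr6:128177161-128177220, - strand) was at -3.12 and -3.11 with TSA and at -4.35 and -4.93 with vehicle, where neither array was well above background. The TSA arrays were above both vehicle arrays, by 1.22 within slide 1 and 1.82 within slide 2. The log2 difference of 1.52 ± 0.24, at least 2.40-fold, did not pass (adjusted p = 0.0680, limma). This gene stood at the edge of the test and near background. Quantile normalization gave an adjusted p of 0.0404, the deposited values 0.0403 and the slide as a replicate block 0.0432, while normexp correction turned the sign (-0.17, adjusted p = 0.595). The processed intensities were 37.4 and 52.3 with TSA and 11.6 and 5.41 with vehicle, in the range of the normexp offset of 50.

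Six4 (chr12:74201246-74201305, - strand) was the member whose groups overlapped, at -1.39 and -1.50 with TSA and -1.26 and -1.51 with vehicle (log2 difference -0.07 ± 0.17, adjusted p = 0.830, limma). The probes of the 3 Eya genes were lower on every TSA array than on every vehicle array. Among all genes, 59.3% did not overlap, in either direction, and the median difference was -0.13. The log2 differences were -0.15 ± 0.15 in Eya1, -0.24 ± 0.19 in Eya2 and -0.36 ± 0.21 in Eya4. None of the 3 passed (adjusted p from 0.358 to 0.562, limma). The Eya1 probe holds a repeat, described below, and its difference was 0.0408 with normexp. Tead1 is described with its 3 probes below.

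**Figure D2:**
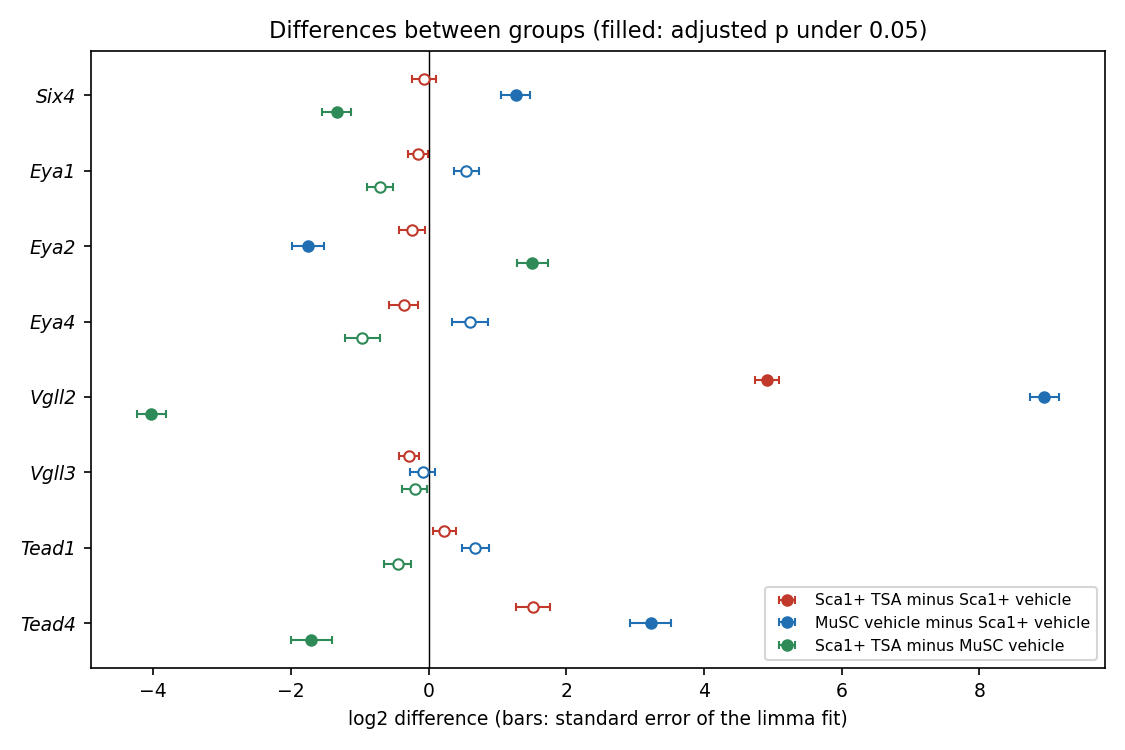
Log2 difference of each gene in the 3 comparisons, with the standard error of the limma fit. Filled points passed at an adjusted p under 0.05. Vgll2 is the only filled point for TSA minus vehicle, at a fitted 4.92, and its MuSC minus vehicle point is at a fitted 8.94, both against vehicle spots not well above background.

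The second comparison, MuSC against Sca1+ cells after vehicle, asks how the 2 sorted populations differ. Vgll2, Tead4 and Six4 were higher in MuSC, and Eya2 was lower. These are 3 of 8 members higher and 1 lower, while 22.1% of all genes passed, 10.5% higher and 11.7% lower. Vgll2 and Tead4 passed the filter on dim probes only through groups where they are high, so the higher count depends on the filter. With every array required to be well above background, 1 of 6 members was higher and 1 lower. Among all 22392 genes then tested, 2418 were higher and 2896 lower. The median member difference was 0.64, against -0.04 over all genes. With 1 MuSC array, limma takes its spread from the Sca1+ arrays.

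Six4 was at -0.12 in MuSC and at -1.26 and -1.51 in vehicle Sca1+ cells. The MuSC array was above both, and the log2 difference was 1.27 ± 0.21, 2.40-fold (adjusted p = 0.0212, limma). Within slide 1 it was 1.14. The call was lost without vehicle replicate 2 (adjusted p = 0.0734), without either TSA array (0.0727 and 0.0682, through the shared estimate of spread) and with no filter on dim probes (0.0605).

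Eya2 (chr2:165597072-165597131, + strand) went the other way, at 1.02 in MuSC and 2.94 and 2.60 in vehicle Sca1+ cells. MuSC was below every Sca1+ array, and the log2 difference was -1.75 ± 0.23 (adjusted p = 0.0119, limma), 3.36-fold lower in MuSC and -1.92 within slide 1. Without TSA replicate 1 the adjusted p was 0.0507. Eya4 (chr10:22824002-22824061, - strand) was at -0.97 in MuSC and -1.35 and -1.77 in vehicle Sca1+ cells, above both, with a log2 difference of 0.60 ± 0.26 that did not pass (adjusted p = 0.191, limma).

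Eya1 (chr1:14159982-14160041, - strand) was at 4.83 in MuSC and 4.23 and 4.33 in vehicle Sca1+ cells, a log2 difference of 0.55 ± 0.18 that did not pass (adjusted p = 0.115, limma). Its single probe is not made of unique sequence. Of its 60 bases, 34 (bases 27 to 60) are a GT repeat, whose last 30 bases are printed here in capitals for that reason.
Eya1 probe, bases 31 to 60: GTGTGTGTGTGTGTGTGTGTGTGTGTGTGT

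The longest such run in any other member's probe was 7 bases. Another 35 probes of the array hold a run of at least 24 bases, a minimum chosen after the values were seen. All 35 (100%) were well above background on the 5 arrays, against 53.6% of all probes. Their MuSC minus vehicle differences lay between 0.27 and 0.76 with a median of 0.52, and their TSA minus vehicle differences between -0.32 and 0.09 with a median of -0.09. The Eya1 differences of 0.55 and -0.15 lie inside both ranges, so its values cannot be told apart from those of probes for other genes that share the repeat. Likewise 2 of the 3 genes nearest to Eya1 in pattern, Ung and Wdr89, have probes with runs of 34 and 29 bases, and the third, Top1mt, has none.

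**Figure D3:**
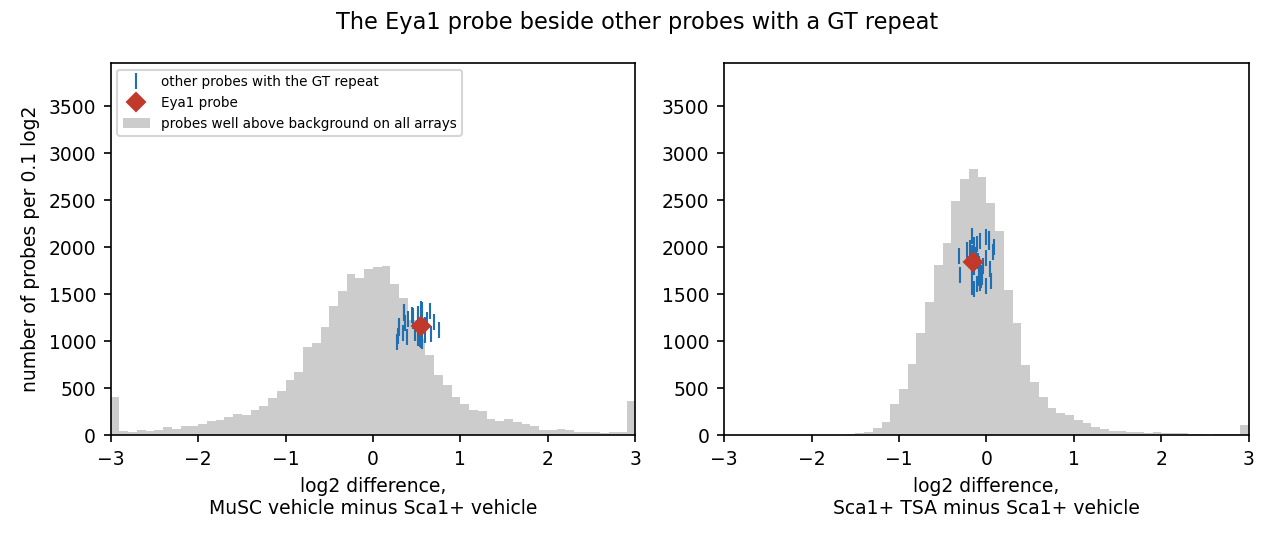
Log2 differences of the Eya1 probe (diamond) and of 35 other probes with the GT repeat (ticks, spread vertically for sight only) over the distribution of all probes well above background on the 5 arrays, in bins of 0.1; the end bins hold all values beyond. The repeat probes lie between 0.27 and 0.76 for MuSC minus vehicle, with Eya1 at 0.55.

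Vgll2 was at 4.37 in MuSC and at -4.70 and -4.45 in vehicle Sca1+ cells, with an intensity of 4965 in MuSC. With the vehicle spots again only a bound, the level was at least 474-fold higher in MuSC (adjusted p = 0.00141, limma). The fitted log2 difference was 8.94 ± 0.21, 9.07 within slide 1 and 5.68 with normexp. Vgll3 was at -2.52 in MuSC, within 0.08 of the vehicle mean on the log2 scale (-0.08 ± 0.18, adjusted p = 0.778, limma).

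Tead4 was at -1.41 in MuSC and at -4.35 and -4.93 in vehicle Sca1+ cells. The log2 difference was 3.22 ± 0.30, at least 7.83-fold higher in MuSC (adjusted p = 0.00535, limma), and 2.93 within slide 1. With normexp it was 0.79 (adjusted p = 0.0367). All 6 satellite cell markers, all 6 markers of differentiating muscle, all 6 smooth muscle markers and all 4 Schwann cell markers were higher in MuSC as well. Of these, Pax7, Myf5, Calcr, Ckm, Myh1 and Myocd passed the filter on dim probes only through groups where they are high. All 7 fibroadipogenic and Sca1+ gate markers, 4 of 5 endothelial, 2 of 3 erythroid and 1 of 4 mast cell markers were lower. Their part in the MuSC differences was not tested.

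Tead1, the other TEA domain member, has 3 probes, and they disagree. The probe used in the gene-level fit (chr7:120049844-120049903, + strand) lies at base 9486 of the transcript. It was at 1.28 and 1.52 with TSA, 1.85 in MuSC and 1.15 and 1.18 with vehicle. The probe at base 3087 (chr7:120043445-120043504) was at -2.60 and -3.20 with TSA, -2.37 in MuSC and -3.38 and -3.86 with vehicle. Both probes were highest in MuSC and lowest in vehicle Sca1+ cells. The probe at base 1846 (chr7:120042204-120042263) ran in the opposite order, at -0.48 and -0.44 with TSA, -0.63 in MuSC and -0.05 and 0.39 with vehicle.

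No Tead1 difference passed in a limma fit over all probes. For MuSC minus vehicle the 3 log2 differences were 0.68 (adjusted p = 0.101), 1.25 (0.0935) and -0.80 (0.115) for the probes at bases 9486, 3087 and 1846. For TSA minus vehicle they were 0.23 (0.457), 0.72 (0.266) and -0.63 (0.214). A direction for Tead1 therefore depends on the probe, which was not followed to transcript isoforms here.

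**Figure D4:**
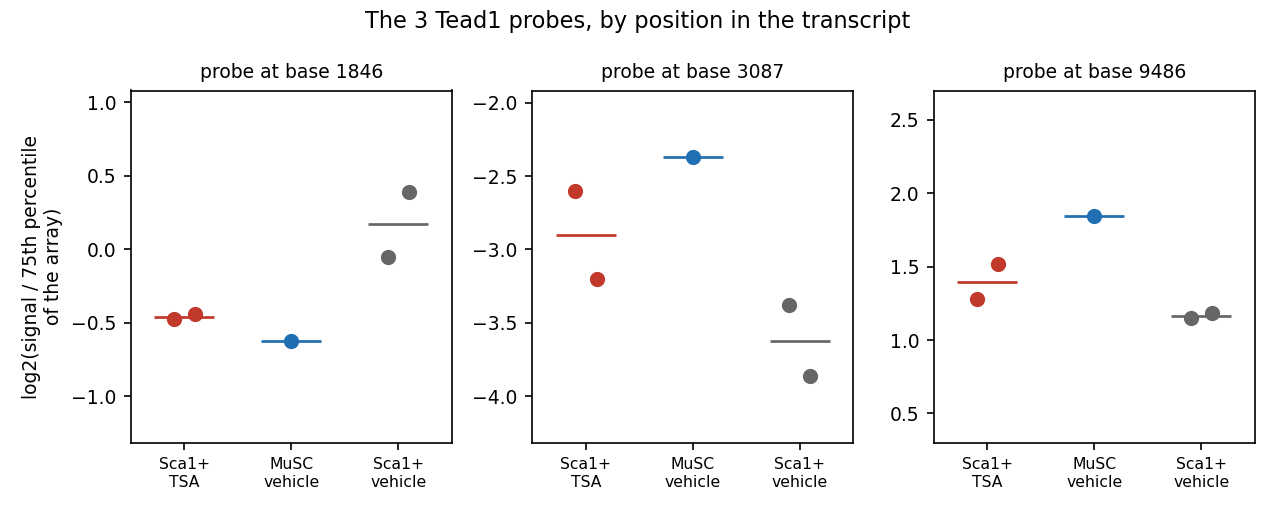
The 3 Tead1 probes by transcript position, with log2 levels on the 5 arrays and group means as lines. MuSC is the highest point at bases 3087 and 9486 and the lowest at base 1846, where it is at -0.63.

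The third comparison sets TSA-treated Sca1+ cells against MuSC and so places their levels. It differs in both population and treatment and shares arrays with the other comparisons. Vgll2, Tead4 and Six4 were lower in TSA Sca1+ cells than in MuSC, and Eya2 was higher, that is 3 of 8 members lower and 1 higher. Among all genes 12.8% passed, 7.94% higher and 4.82% lower. The median was -0.83 over the members and -0.13 over all genes.

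Vgll2 differed by -4.03 ± 0.21 on the log2 scale (adjusted p = 0.00488, limma), a level 16.3-fold lower in TSA Sca1+ cells than in MuSC. Its levels thus ran in the order MuSC, TSA Sca1+ and vehicle Sca1+, with each step past the test. Tead4 had the same order of means at -1.71 ± 0.30 for TSA minus MuSC (adjusted p = 0.0366), where the step between TSA and vehicle did not pass. Six4 was at -1.33 ± 0.21 (adjusted p = 0.0287), so that MuSC stood apart and the 2 Sca1+ groups did not differ beyond their spread. Eya2 was at 1.51 ± 0.23 (adjusted p = 0.0265), with both Sca1+ groups above MuSC. Without TSA replicate 1 the adjusted p was 0.0631 for Vgll2, 0.133 for Six4, 0.133 for Eya2 and 0.160 for Tead4. Without TSA replicate 2 it was 0.139, 0.129 and 0.149 for Six4, Eya2 and Tead4. With no filter on dim probes those 3 genes gave 0.0817, 0.0752 and 0.0897, and Six4 also missed the threshold without either vehicle array (0.0531 and 0.0570).

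Of the other genes of the 4 families, 9 are described here. Six6 did not pass the filter on dim probes and was not tested. None of the others passed for TSA against vehicle, where 2.98% of all genes did. Six2 was at 1.58 in MuSC and 0.06 and 0.00 in vehicle Sca1+ cells (log2 difference 1.55 ± 0.18, adjusted p = 0.00918, limma). Tead2 was at 2.51 in MuSC and 1.34 and 1.02 in vehicle Sca1+ cells (1.33 ± 0.22, adjusted p = 0.0211, limma). Both were thus higher in MuSC, and both were also lower in TSA Sca1+ cells than in MuSC (-1.36 and -1.13, adjusted p = 0.0203 and 0.0465, limma). Tead3 (0.99), Vgll1 (0.55), Vgll4 (0.26), Eya3 (-0.04), Six5 (-0.61) and Six3 (-1.32) did not pass for MuSC against vehicle, with adjusted p from 0.0712 to 0.929. Six3 was not well above background in MuSC, Vgll1 was well above it in MuSC alone, and Six6 on no array.

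Genes of the pathways around these factors were then counted. Among all genes, 2.71% were called higher and 0.268% lower for TSA against vehicle. The shares were 10.5% and 11.7% for MuSC against vehicle, and 7.94% and 4.82% for TSA against MuSC. At the low shares for TSA against vehicle, a list of this size with no call, or with none lower, is not set apart from other genes. None of 18 Hippo pathway genes passed for TSA against vehicle, with a median of -0.06. The 2 with the smallest p were Ajuba, a scaffold protein that restrains the LATS kinases (0.67, adjusted p = 0.110, limma), and Mob1a, a LATS coactivator (-0.72, adjusted p = 0.170). For MuSC against vehicle 1 was higher and 1 lower: Ajuba (1.82, adjusted p = 0.00617) and Amot, which binds YAP (-1.66, adjusted p = 0.00878). Yap1, the YAP gene, was at 3.74 and 4.20 with TSA, 3.93 in MuSC and 3.82 and 4.01 with vehicle. Its differences were 0.05 and 0.02, and Wwtr1, the TAZ gene, differed by -0.05 with TSA and -0.55 in MuSC, none of which passed.

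Of 22 genes known as targets of YAP, TAZ and TEAD, 1 rose with TSA and none fell. It was Ankrd1, a muscle ankyrin repeat protein, at 0.00 and 0.25 with TSA and -4.94 and -3.44 with vehicle, where 1 of the 2 arrays was well above background (4.32 ± 0.54, adjusted p = 0.0386, limma). In MuSC 5 of the 22 were higher and 8 lower than in vehicle Sca1+ cells. Among them were Ankrd1 (7.42), the tissue factor gene F3 (-4.94), Ccdc80 (-3.98) and Foxf2, which was not well above background in MuSC and at least 2.06-fold lower there. For TSA against MuSC 5 were higher and 1 lower. In both comparisons with MuSC the list thus had calls in both directions, while Ankrd1 was its only call for TSA against vehicle. The medians were -0.04 for TSA and -0.16 for MuSC against vehicle.

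Of 4 partner genes of the Six4 family and the Eya proteins, 3 were tested and none passed for TSA. In MuSC Dach1, a corepressor that acts with these homeodomain factors, was lower (-2.26, adjusted p = 0.00520, limma), as was Sobp (-0.92, adjusted p = 0.0317). Dach1 was also the gene of this list that was higher in TSA Sca1+ cells than in MuSC (2.87, adjusted p = 0.00591).

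Of 10 muscle genes with described MEF3 or MCAT elements, 6 rose with TSA and none fell, with a median of 2.83. Among all genes 2.71% rose and 0.268% fell. Ckm, Tnnt2, Myf5 and Tnnc1 passed the filter on dim probes only through groups where they are high, so the counts depend on the filter. Ckm and Tnnt2 are among the 6 that rose. The muscle regulator gene Myog was at 1.12 and 1.53 with TSA and -3.58 and -3.54 with vehicle (4.89 ± 0.20, adjusted p = 0.00425, limma). The actin genes Acta2 (4.57) and Acta1 (3.83) and the cardiac troponin T gene Tnnt2 (4.10) rose too. In MuSC 9 of the 10 were higher than in vehicle Sca1+ cells and none was lower, with a median of 5.70. For TSA against MuSC 6 were lower and none higher. Myf5, Myog, Ckm, Acta1 and Acta2 of this list also stand among the cell type markers above, so its counts and theirs are not separate.

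**Figure D5:**
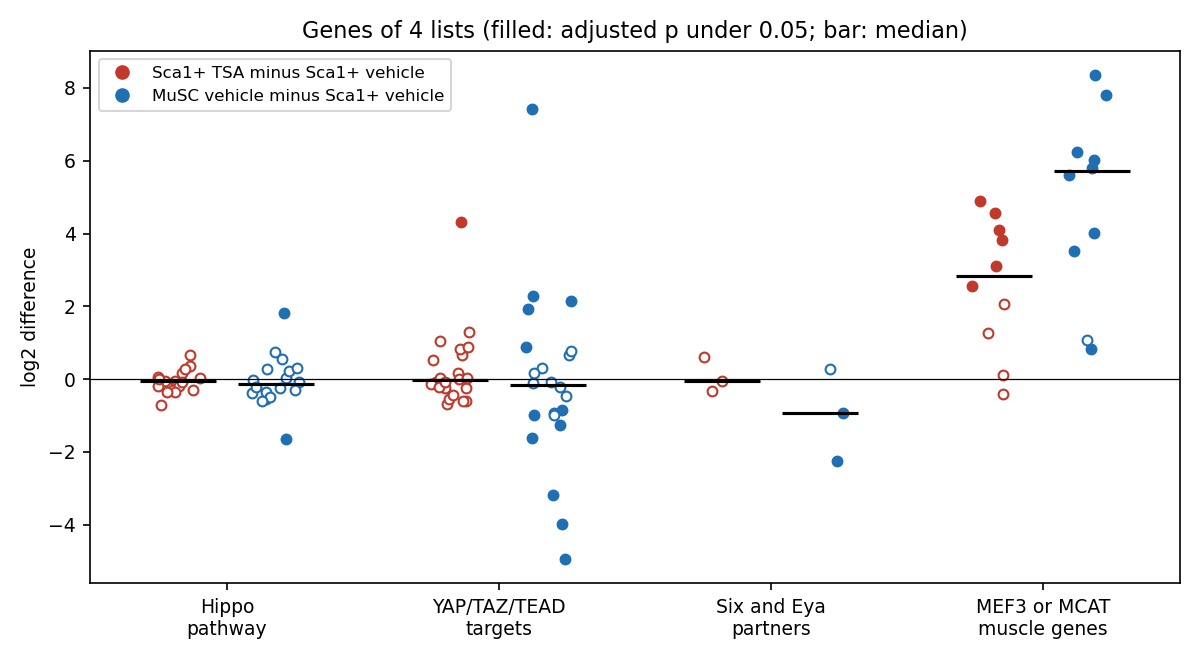
Log2 differences of the genes of 4 lists for TSA minus vehicle in Sca1+ cells and for MuSC minus Sca1+ cells after vehicle. Points are genes, filled where the adjusted p was under 0.05, and bars are medians, which were 2.83 and 5.70 for the MEF3 or MCAT muscle genes and between -0.92 and -0.04 for the other lists.

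The genes most like each member were taken as the 3 with the smallest root mean square difference of centred log2 values over the 5 arrays, among 15589 other genes. Nearest to Vgll2 were the cardiac actin gene Actc1 (0.19), the satellite cell marker Calcr (0.21) and Popdc3 (0.24). Nearest to Tead4 were Kcne4 (0.06), Ppargc1a (0.09) and Smarcd3 (0.10). Vgll2, Calcr and Tead4 were not well above background on the vehicle arrays, so their distances rest in part on readings near background. Six4 had Pdlim4 (0.05) and Tmem25 (0.06) among its 3, and Eya2 had Efemp2 (0.03), Tbx18 (0.03) and Fam102b (0.04). Eya4 had Igdcc4 (0.05), Sorcs1 (0.06) and Tafa5 (0.06), and Vgll3 had Cenpb (0.01), Atg10 (0.02) and Acsf2 (0.03). Tead1, read here from its probe at base 9486 alone, had Pfdn4 (0.02), Plcb3 (0.02) and Mrpl19 (0.03). Members were not each other's nearest genes. Tead4 was at rank 436 for Vgll2, while Vgll2 was at rank 15153 for Tead4. Eya1, whose probe holds the repeat, was at rank 459 for Eya4, and Eya4 was at rank 1934 for Eya1.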

How the data were processed

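RNA was hybridised to 5 Agilent arrays of 1 colour. Agilent Feature Extraction 10.7.3.1, per the file headers, read the spot intensities and gave the background-subtracted processed signal used here. The deposited table of the authors is in log2 with the same median (4.67) in every column and was an alternative; the tool that made it is not given in the sources used here. From 59305 non-control spots, outlier-flagged spots (0.196% to 0.334%) were left out, log2 signals were set to the array's 75th percentile and spots of a probe were averaged. A gene with several probes was read from the probe with the highest mean. Genes were named through a RefSeq table where accessions matched, for 26413 of 55681 probes. Group differences came from limma 3.58.1 (R 4.3.3), fitted over all 5 arrays in 3 groups (2 residual degrees of freedom, prior 2.30, two-sided, Benjamini-Hochberg at 0.05 over all genes). On simulated data with 26131 genes, 0% of log2 changes of 1 or 2 were called, and of changes of 4, 82.5% for TSA against vehicle (2.94% false among the calls) and 76.5% for MuSC against vehicle (4.38% false). In the simulations few genes changed, which makes the adjusted threshold stricter than in the data.

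Members, gene lists, marker lists and the rule for named genes (all members, the other family genes, up to 4 genes per list, the 3 nearest genes in pattern) were chosen with earlier results of these data known. Some genes the rule names are not reported here. The normexp alternative used the median spot signal in place of the mean signal named at the start, because the files of 1 slide hold no mean signal. Other alternatives were quantile normalization, 2 other filters, other ways of combining probes, the slide as a block, and leaving out each array. Precision is limited by the number of arrays. No spot was saturated (0 on every array).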

Additional observations from a re-analysis of the deposited data

How the results depend on the processing

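Over the alternatives that gave a value, the log2 differences of the members kept their direction except 3 for TSA against vehicle, none of them called: Six4 when 1 array was left out (-0.192 to 0.0594, positive without vehicle replicate 1), and with normexp Eya1 (0.0408) and Tead4 (-0.17). In the alternative with every probe fitted, each member was still read from the probe of the main fit. The opposite direction of the Tead1 probe at base 1846 is therefore not among these 3. The genes called for TSA against vehicle were 778 (708 higher, 70 lower). They were 7099 with normexp, split into 1256 higher and 5843 lower while the median of all genes moved to -0.25 from -0.13, 279 with no filter, and 0 to 314 when 1 array was left out. At the counts of 0, limma gave 4813 genes (without TSA replicate 1) and 3300 (without TSA replicate 2) at an unadjusted p under 0.05. Members called for TSA were 2 with quantile normalization, with the deposited values and with the replicate block, which all added Tead4, 0 when every array had to be above background, which drops Vgll2 and Tead4, and 0 to 1 with 1 array left out. For MuSC against vehicle, genes called were 5782, 3375 with no filter and 3029 to 4205 with 1 array left out, and members called were 4, 2 with the every-array filter and 2 to 4 with 1 array left out. For TSA against MuSC, genes called were 3334, 1302 with no filter and 0 to 2214 with 1 array left out (5944 at an unadjusted p under 0.05 for the count of 0), and members called were 4, 1 with no filter, 2 with the every-array filter and 0 to 3 with 1 array left out. The causes were not tested beyond what each alternative's construction sets. Arrays that share a replicate number also share a slide; the correlation of their deviations was 0.35 over 2 pairs, too few to settle a pairing. With the replicate block 1099 genes passed for TSA against vehicle, Tead4 among them (adjusted p = 0.0432), 6134 for MuSC against vehicle and 3498 for TSA against MuSC; the block changed no other call of a member. Signal near background limits Tead4 and the vehicle level of Vgll2.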
